A study of Mus musculus with 20 samples.

Results

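Interferon-stimulated genes are the genes that a cell switches on when an interferon binds its receptor. A list of 38 of them was followed here, chosen by gene symbol with earlier results of these data known. All 38 symbols were found among the 25052 genes of the tables. Of these, 29 were placed in a type I class, named for the antiviral response to interferon alpha and beta, and 9 in a type II class, named for the response to interferon gamma. The type II class holds Irf1, 4 guanylate-binding proteins and 4 immunity-related GTPases. Many genes of either class can respond to both interferons, so the classes are a convention. With a filter on low values, 12775 genes were tested, and 34 of the 38 interferon-stimulated genes were among them, 25 of type I and all 9 of type II. Zbp1, Oas3, Mx1 and Mx2 did not pass the filter.

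The RNA came from the left ventricle of 20 male mice, 5 in each of 4 groups formed by genotype and diet. The mice called iKO carried floxed alleles of Acacb, the gene of acetyl-CoA carboxylase 2 (ACC2), and MerCreMer, a Cre recombinase that tamoxifen activates; the labels do not name the promoter that drives it. Littermates with the floxed alleles and without Cre are called WT, and both genotypes were given tamoxifen at 20 mg/kg for 5 days when 8 weeks old. From 4 weeks after tamoxifen, mice were kept for 16 weeks on chow or on D12492 of Research Diets, a high-fat diet (HFD). ACC2 makes malonyl-CoA, which holds back the entry of fatty acids into mitochondria. There was no group with Cre and unfloxed alleles, so a loss of ACC2 and an effect of Cre with tamoxifen cannot be told apart.

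Values are FPKM, which scale a gene's reads by its length and by the size of its library. All libraries of numbers RT1 to RT10 came from chow-fed mice and RT11 to RT20 from HFD-fed mice, so library number and diet cannot be told apart. Acacb lay between 34.9 and 41.92 FPKM in the 10 WT libraries and between 8.37 and 11.92 in the 10 iKO libraries. The cardiomyocyte myosin Myh6 lay between 2123.51 and 2898.95 FPKM in all 20. The atrial myosin light chain Myl7 reached 145.15 FPKM in the WT chow library RT1 and 30.81 in the iKO chow library RT4, against at most 2.88 in the other 18. Depth, estimated from the FPKM that 1 read is worth, ran from 12.6 M assigned reads in RT7 (iKO on chow) to 31.9 M in RT18 (WT on HFD). Groups differed in depth, with means on chow of 21.3 M in WT and 19.9 M in iKO, and on HFD of 27.9 M and 23.1 M.

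Type I interferons signal through Ifnar1 and Ifnar2 and the kinases Jak1 and Tyk2 to a complex that includes STAT2 and IRF9 and binds a DNA motif called the interferon-stimulated response element (ISRE). Interferon gamma signals through Ifngr1 and Ifngr2 and the kinases Jak1 and Jak2 to factors that bind the gamma-activated site (GAS). The products detect viral RNA, block its translation or degrade it, hold particles at the cell surface, or mark and break open the vacuoles of intracellular microbes. Uninfected tissues, the heart among them, keep a low level of many of these transcripts, with resident macrophages, endothelial cells and fibroblasts among the cells that express them.

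The 2 motifs were searched on both strands of RefSeq promoter windows on GRCm38, from 250 bases before to 50 after each start, as GAAANNGAAA for ISRE (TTTCNNTTTC on the other strand) and TTCNNNGAA for GAS, which reads alike on both strands. A window was matched for 27 of the 38 genes. ISRE letters were found in 18 of the 27 (66.7%), against 3.99% of the 27025 genes with a window, and GAS letters in 9 (33.3%), against 9.55%. By class, ISRE letters were in 12 of 20 type I genes (60%) and in 6 of 7 type II genes (85.7%), and GAS letters in 5 type I (25.0%) and 4 type II genes (57.1%). Both motifs were in 6 genes and neither in 6, and they overlapped each other in Bst2 and Ifitm3. A match of letters is a description and not a measured site.

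The 160 bases before the start are shown for 6 genes whose levels are described below, with ISRE and GAS letters in capitals; they illustrate a window with GAS letters alone (Irf1), windows with ISRE letters alone (Isg15, Rsad2, Ifit3) and windows with both (Igtp, Irgm2). The places are chr11:53769854-53770013 on the plus strand for Irf1, chr4:156200819-156200978 on the minus strand for Isg15, chr12:26456453-26456612 on the minus strand for Rsad2, chr19:34583369-34583528 on the plus strand for Ifit3, chr11:58199396-58199555 on the plus strand for Igtp, and chr11:58214817-58214976 on the plus strand for Irgm2. None overlaps an annotated exon of GENCODE M21, and the Irgm2 stretch lies in an intron of a longer annotated Irgm2 transcript.
Irf1: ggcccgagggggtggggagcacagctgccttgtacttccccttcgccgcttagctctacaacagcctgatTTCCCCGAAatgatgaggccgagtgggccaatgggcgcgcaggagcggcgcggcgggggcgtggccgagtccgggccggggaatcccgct
Isg15: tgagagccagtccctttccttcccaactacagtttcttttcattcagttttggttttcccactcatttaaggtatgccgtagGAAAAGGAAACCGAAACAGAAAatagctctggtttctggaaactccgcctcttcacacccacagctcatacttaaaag
Rsad2: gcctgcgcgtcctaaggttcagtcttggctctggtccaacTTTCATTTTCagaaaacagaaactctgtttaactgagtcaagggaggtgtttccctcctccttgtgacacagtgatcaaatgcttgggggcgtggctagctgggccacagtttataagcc
Ifit3: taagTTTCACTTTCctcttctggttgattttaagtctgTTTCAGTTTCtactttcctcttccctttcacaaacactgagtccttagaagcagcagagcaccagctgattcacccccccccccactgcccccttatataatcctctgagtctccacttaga
Igtp: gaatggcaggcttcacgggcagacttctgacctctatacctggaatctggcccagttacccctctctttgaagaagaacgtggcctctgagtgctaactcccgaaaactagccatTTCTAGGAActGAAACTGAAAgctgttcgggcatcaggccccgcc
Irgm2: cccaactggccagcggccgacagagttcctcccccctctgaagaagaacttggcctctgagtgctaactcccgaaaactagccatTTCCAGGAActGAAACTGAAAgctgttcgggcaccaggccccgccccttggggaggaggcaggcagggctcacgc
The Isg15 stretch holds 3 overlapping ISRE matches in 1 run. Igtp and Irgm2 are neighbours on chromosome 11 and carry the GAS letters and the ISRE letters in the same order and spacing; the longest run of bases that both stretches share is 38, against 7 for Igtp with Irf1 and 6 for Igtp with Isg15.

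Levels of the 38 genes ran from modest to near 0. Averaged over the 20 libraries, 6 had at least 10 FPKM, 24 had 1 to 10 and 8 had less than 1. Ifitm3, which blocks the fusion of viruses in endosomes, was the highest at 62.1 FPKM. It was followed by Ifi27, a small hydrophobic membrane protein, at 19 FPKM, and by Bst2 (tetherin), which holds budding particles at the cell surface, at 16.4. The highest of the type II class was Iigp1, an immunity-related GTPase, at 13.7 FPKM, with Gbp6 at 13.3 and Irgm1 at 10.2. The 4 genes that were not tested read lowest: Oas3 had a mean of 0.0415 FPKM, the GTPases Mx1 and Mx2 had 0.0785 and 0.32, and Zbp1, a sensor of Z-form nucleic acid, had 0.323. Mx1 was at 0.17 FPKM or less in 19 libraries and at 0.46 in RT17, and Zbp1 was highest, at 0.99, in RT7. FPKM are per length and can be compared between genes within these libraries, but reads are shared among near copies: 64.5% of the 100-base stretches of Gbp6, 40.9% of Oas1a, 31.7% of Ifit3 and 27.4% of Ifit3b also occur in another gene, so the values of those 4 are uncertain.

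**Figure D1:**
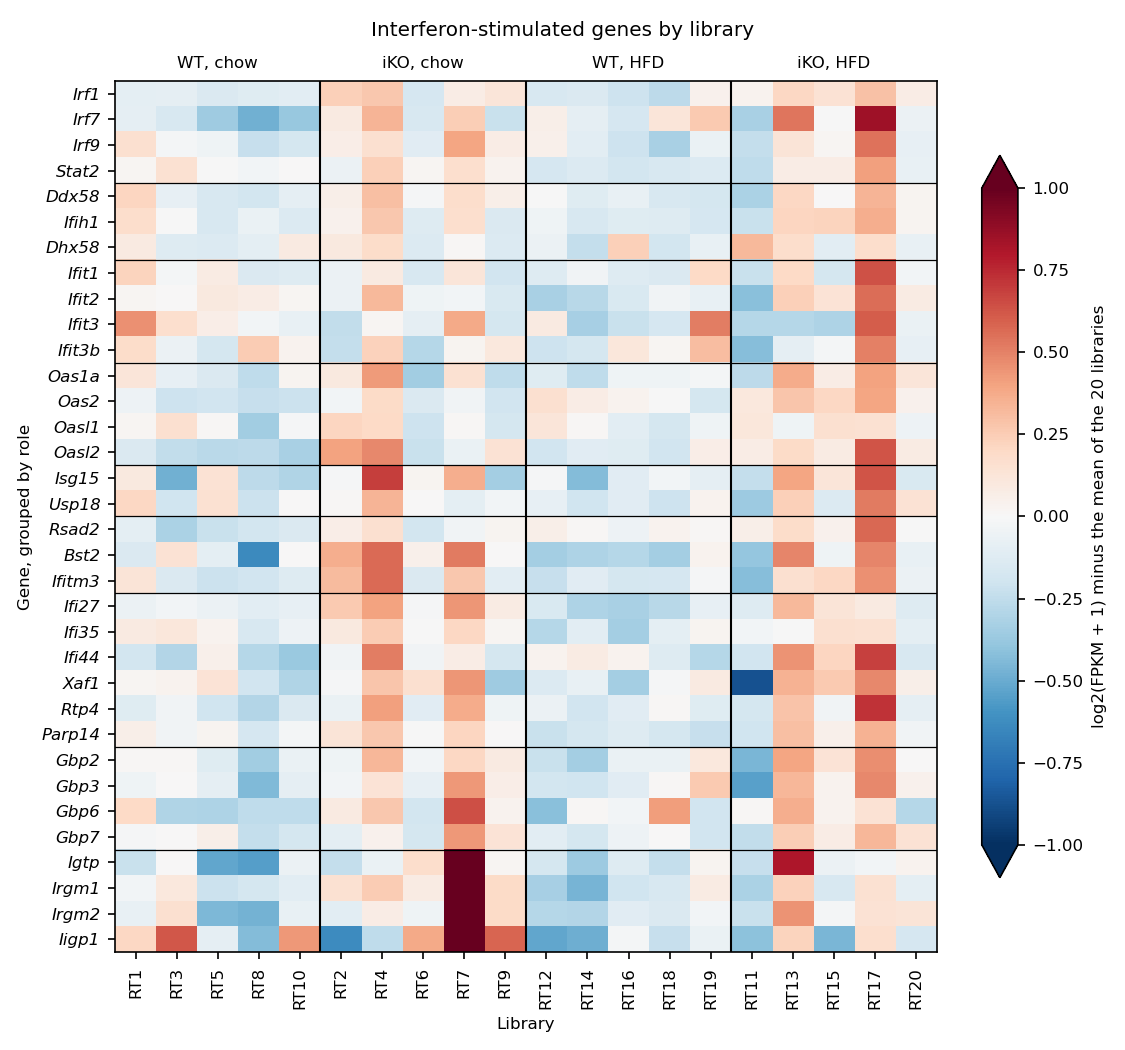
Levels of the 34 tested interferon-stimulated genes (rows, by role) in the 20 libraries (columns, by group), as log2(FPKM + 1) after centring each gene on its mean over the libraries; the colour scale is clipped at -1 and 1. RT17 held the highest of the 20 values for 20 of the 34 genes (5.76% of all tested genes) and RT7 for 7 (16.0%), while the 10 WT libraries held it for none (24.7%).

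ACC2-deleted hearts had higher levels of 4 interferon-stimulated genes than WT hearts when the genotypes were compared over both diets. These were Irf1, a transcription factor that interferon gamma induces; Oasl2, of the oligoadenylate synthetase-like family; Ifi27; and Parp14, which attaches ADP-ribose to proteins. The changes were small, between 1.16-fold and 1.28-fold on the scale of FPKM + 1, and none of the 34 genes was called lower. Fold changes are log2 differences of FPKM + 1, which understate the change of low genes, from limma fitted to all 20 libraries, and a gene is called where its p, adjusted by Benjamini-Hochberg over the 12775 genes, is below 0.05. The 4 called of 34 stand beside 5.17% of all tested genes called in either direction, 4.01% higher and 1.16% lower. The call of Parp14 was kept in 5 of 20 fits that left out a library, and was lost after rescaling by a median of ratios. Without the adjustment, 20 of the 34 had a p below 0.05, against 25.1% of all genes, and 32 of the 34 differences lay above 0, against 76.5%. Their median difference was 0.179 on the log2 scale, against 0.057 for all genes. When the libraries were rescaled by a median of ratios or by their upper quartile, the 34 genes' median was 0.127 and 0.137, again with 32 above 0, and all genes then split into 99 higher and 280 lower calls or 118 and 213, instead of 512 and 148.

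On a single diet none of the 34 was called. On chow, where 1.06% of all genes were called, 8 of the 34 had an unadjusted p below 0.05 (all genes 13.5%), 30 lay above 0 (70.8%), and the median difference was 0.178 (all genes 0.05), over a range from -0.142 for Ifit3 to 0.612 for Igtp. On HFD, where 0.172% were called, 9 had an unadjusted p below 0.05 (15.2%), 32 lay above 0 (74.4%), and the median was 0.204 (all genes 0.063). The interaction of genotype with diet was called for none of the 34 (0.0313% of all genes), none had an unadjusted p below 0.05 (3.76%), and its median was 0.019. The counts on chow rested on the libraries used: without the iKO library RT6, Ifi27, Irf1 and Oasl2 were called on chow and Irf1 was called on HFD. RT6 is a chow library and touches the HFD comparison only through the shared estimate of spread.

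**Figure D2:**
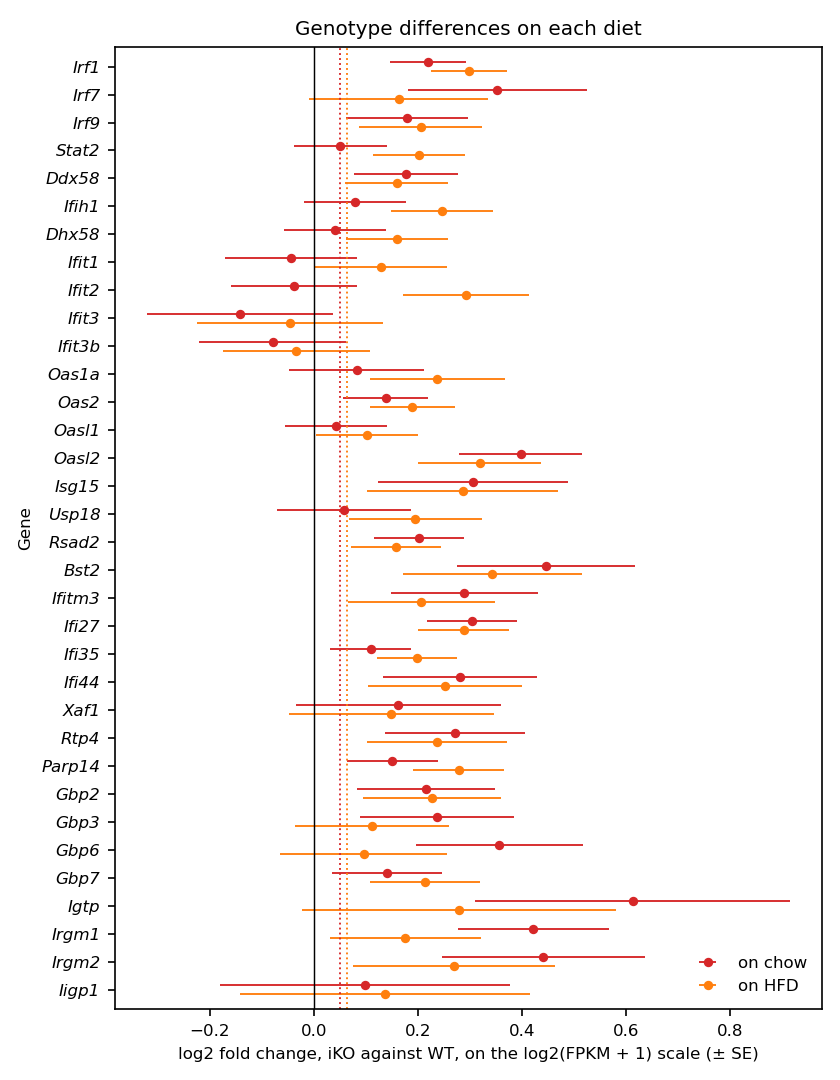
Difference between iKO and WT for each of the 34 tested genes on chow and on HFD, as log2 fold change of FPKM + 1 with limma's standard error; dotted lines mark the medians of all tested genes, 0.05 on chow and 0.063 on HFD. Most points lie right of the line at 0, and the 4 IFIT genes on chow lie left of it.

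The factors that carry the signal in the nucleus include Irf1, Irf7, Irf9 and Stat2. Irf1 (chr11:53770014-53778374) read 7.85, 7.93, 7.56, 7.7 and 7.82 FPKM in the WT chow libraries RT1, RT3, RT5, RT8 and RT10, and 10.18, 10.42, 7.46, 9.0 and 9.3 in the iKO chow libraries RT2, RT4, RT6, RT7 and RT9. On HFD it read 7.47, 7.6, 7.21, 6.89 and 8.79 in the WT libraries RT12, RT14, RT16, RT18 and RT19, and 8.73, 9.97, 9.5, 10.59 and 8.98 in the iKO libraries RT11, RT13, RT15, RT17 and RT20. On each diet 4 of 5 iKO libraries lay above every WT library; RT6 on chow lay below all 5 WT libraries, and on HFD the WT library RT19 slightly exceeded RT11. The group means were 7.77 ± 0.144 (SD, n = 5) and 9.27 ± 1.17 on chow and 7.59 ± 0.723 and 9.55 ± 0.751 on HFD. Averaged over the diets, Irf1 rose by 0.26 on the log2 scale (SE 0.052, limma, adjusted p = 0.00677), and its diet difference was 0.005 (adjusted p = 0.953). Per library below, values follow the same library order.

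Irf7, the factor that amplifies type I interferon production, read 3.74, 3.51, 2.95, 2.62 and 2.89 FPKM in WT on chow and 4.38, 5.39, 3.52, 4.99 and 3.32 in iKO on chow. The HFD values were 4.26, 3.74, 3.5, 4.5 and 5.06 in WT and 3.04, 6.32, 4.05, 8.1 and 3.84 in iKO. The groups overlapped on both diets, and the spread in iKO on HFD, 5.07 ± 2.09, came mainly from RT13 and RT17. Its averaged difference of 0.26 (SE 0.121) was not called (limma, adjusted p = 0.193). Irf9 and Stat2, the partners in the ISRE-binding complex, differed by 0.19 and 0.13 and were not called (adjusted p = 0.158 and 0.211). All 4 factors lay above 0 on both diets, under both rescalings too.

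**Figure D3:**
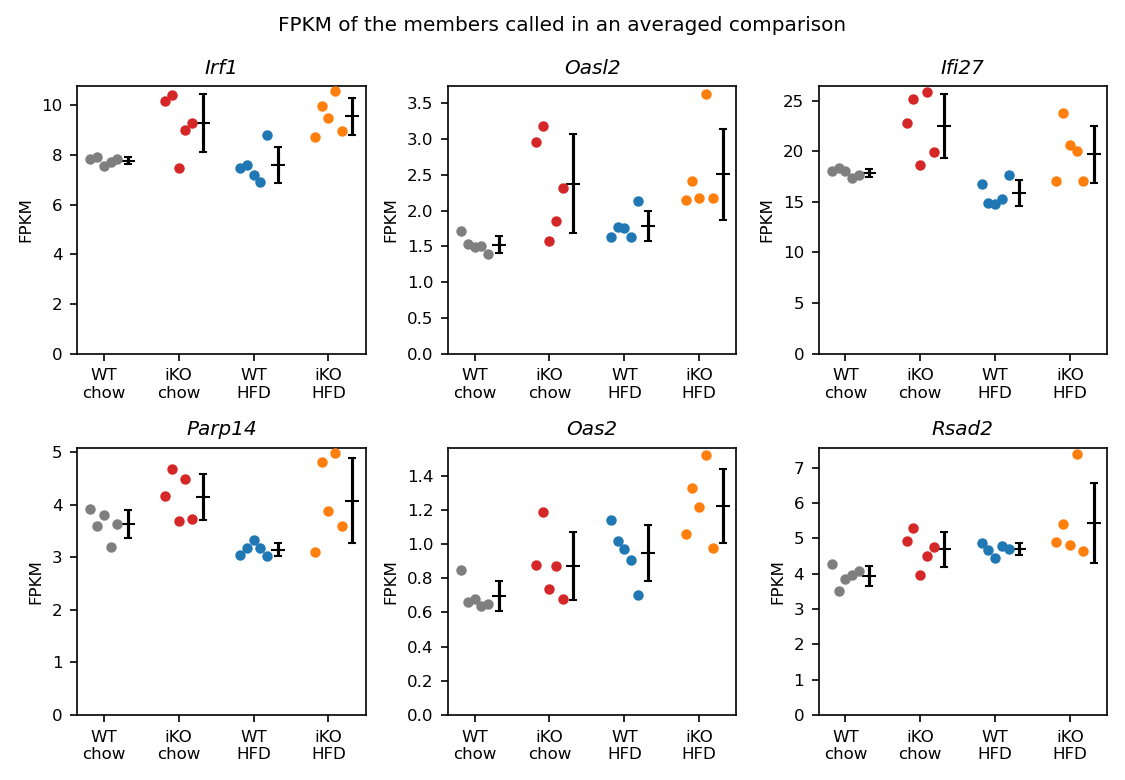
FPKM of Irf1, Oasl2, Ifi27, Parp14, Oas2 and Rsad2 in each of the 20 libraries, by group; a point is a library and the bar is the mean ± SD of 5 mice. Ifi27 on chow and Oasl2 on HFD are the panels in which the iKO points lie wholly above the WT points of the same diet.

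Among the sensors, the highest was Ddx58 (RIG-I), which detects viral RNA ends. It read 3.54, 2.69, 2.5, 2.43 and 2.67 FPKM in WT and 3.07, 3.81, 2.87, 3.42 and 3.07 in iKO on chow. In HFD-fed mice it read 2.89, 2.6, 2.7, 2.49 and 2.46 in WT and 2.13, 3.5, 2.91, 3.95 and 2.98 in iKO. Apart from RT1, every chow WT library lay below every chow iKO library; on HFD 4 of 5 iKO libraries lay above all WT libraries and RT11 lay below them. The averaged difference was 0.17 (SE 0.07, limma, adjusted p = 0.143). Ifih1 (MDA5), a sensor of long double-stranded RNA, and Dhx58 (LGP2), which modulates both, differed by 0.16 and 0.1 and were not called (adjusted p = 0.152 and 0.374).

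The IFIT genes encode proteins that bind foreign RNA and block its translation. None of the 4 lay above 0 on chow and 2 of 4 did on HFD, with medians of -0.061 and 0.048, and none was called; rescaled by a median of ratios the HFD median was -0.002. Ifit2 read 4.25, 4.2, 4.54, 4.46 and 4.26 FPKM in WT and 3.97, 5.47, 4.02, 4.08 and 3.65 in iKO on chow. HFD-fed mice had 3.14, 3.26, 3.66, 4.05 and 3.91 in WT and 2.88, 5.09, 4.69, 6.63 and 4.49 in iKO. Thus 4 of 5 iKO libraries lay below all WT libraries on chow, RT4 being the exception, and 4 of 5 lay above all WT libraries on HFD, RT11 being the exception. The difference was -0.04 on chow and 0.29 on HFD (SE 0.121 for each), and their contrast, the interaction, was 0.33 (SE 0.171, limma, unadjusted p = 0.066, adjusted p = 0.999).

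Ifit3 read 5.81, 4.58, 4.18, 3.87 and 3.71 FPKM in WT and 3.19, 4.02, 3.66, 5.44 and 3.38 in iKO on chow. Under HFD it read 4.27, 2.93, 3.26, 3.42 and 6.09 in WT and 3.06, 3.06, 3.01, 6.53 and 3.73 in iKO. Each group had a library well above its others, and the groups overlapped. Its averaged difference was -0.09 (SE 0.126, limma, adjusted p = 0.663), with a 95% interval from -0.357 to 0.17. Ifit1 and Ifit3b differed by 0.04 and -0.06 (adjusted p = 0.79 and 0.745).

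The oligoadenylate synthetases make the messenger that activates RNase L, and Oasl2 (chr5:114896936-114912234) was the highest of this family. It read 1.71, 1.53, 1.49, 1.5 and 1.39 FPKM in WT and 2.96, 3.18, 1.57, 1.86 and 2.32 in iKO on chow. The levels on HFD were 1.63, 1.77, 1.76, 1.63 and 2.14 in WT and 2.15, 2.42, 2.17, 3.63 and 2.17 in iKO. On chow RT6 was the only iKO library within the WT range. On HFD the groups did not overlap, by a margin of 2.14 (RT19) to 2.15 (RT11); Oasl2 was the only gene of the 34 with the iKO libraries wholly above on HFD, against 2.79% of all genes. The means were 1.52 ± 0.117 and 2.38 ± 0.69 on chow and 1.79 ± 0.209 and 2.51 ± 0.637 on HFD. Averaged over the diets it rose by 0.36 (SE 0.083, limma, adjusted p = 0.0181), or 1.28-fold on the scale of FPKM + 1, which understates its change in FPKM. The matched Oasl2 promoter window held neither motif.

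Oas2 (chr5:120730333-120749853) was lower, at 0.85, 0.66, 0.68, 0.64 and 0.65 FPKM in WT and 0.88, 1.19, 0.74, 0.87 and 0.68 in the chow iKO mice. Under HFD it was at 1.14, 1.02, 0.97, 0.91 and 0.7 in WT and 1.06, 1.33, 1.22, 1.52 and 0.98 in iKO. In WT, 4 of 5 HFD libraries lay above every chow library, RT19 being the exception; in iKO the diets overlapped. Its genotype difference of 0.16 was not called (limma, adjusted p = 0.0939). All 4 tested members of the family lay above 0 on both diets, and Oas1a and Oasl1, at 0.16 and 0.07, were not called (adjusted p = 0.281 and 0.529).

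Isg15, a ubiquitin-like protein that is joined to other proteins, read 3.51, 2.01, 3.64, 2.51 and 2.41 FPKM in WT and 3.17, 5.78, 3.28, 4.4 and 2.33 in the chow iKO mice. Under HFD it read 3.17, 2.12, 2.89, 3.13 and 2.95 in WT and 2.57, 4.53, 3.58, 5.5 and 2.79 in iKO. RT4, RT7, RT13 and RT17 were the high libraries, and the groups overlapped on both diets. The averaged difference was 0.3 (SE 0.129, limma, adjusted p = 0.163). Usp18, the protease that removes ISG15 and restrains the type I receptor, differed by 0.13 (adjusted p = 0.386).

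Of the other antiviral genes, Ifitm3 read 66.93, 55.33, 52.58, 53.35 and 55.8 FPKM in WT and 76.4, 90.93, 55.14, 73.7 and 56.67 in iKO on chow. The HFD values were 52.03, 56.55, 53.92, 54.36 and 60.6 in WT and 45.3, 68.48, 70.64, 84.1 and 58.57 in iKO. On each diet 3 of 5 iKO libraries lay above all WT libraries, and RT11 was the lowest of all 20. The averaged difference was 0.25 (SE 0.1, limma, adjusted p = 0.137).

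Bst2 read 14.33, 17.7, 14.84, 9.89 and 15.98 FPKM in WT and 20.73, 24.05, 16.52, 23.29 and 15.98 in iKO on chow. In HFD-fed mice it read 12.37, 12.67, 12.9, 12.35 and 16.35 in WT and 11.96, 22.71, 15.47, 22.79 and 15.05 in iKO. Its averaged difference of 0.39 (SE 0.121) was larger than those of the 4 called genes but its spread was wider, and it was not called (limma, adjusted p = 0.0639).

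Rsad2 (viperin), an enzyme that makes a chain-terminating nucleotide against viral polymerases, lies at chr12:26442746-26456452. It read 4.28, 3.52, 3.84, 3.96 and 4.09 FPKM in WT and 4.92, 5.29, 3.97, 4.51 and 4.75 in iKO on chow. HFD-fed mice had 4.87, 4.68, 4.45, 4.79 and 4.7 in WT and 4.89, 5.41, 4.81, 7.38 and 4.64 in iKO. On chow 4 of 5 iKO libraries lay above all WT libraries; on HFD the groups overlapped and RT17 stood highest. Its genotype difference of 0.18 (SE 0.061) was not called (limma, adjusted p = 0.0834).

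Among the other induced genes, Ifi27 (chr12:103434211-103440239) read 17.99, 18.35, 17.99, 17.34 and 17.65 FPKM in WT and 22.73, 25.12, 18.62, 25.87 and 19.92 in iKO on chow. Under HFD it read 16.72, 14.92, 14.76, 15.27 and 17.66 in WT and 17.07, 23.76, 20.62, 20.03 and 17.03 in iKO. On chow the groups did not overlap, which held for no other of the 34 genes and for 2.07% of all genes with the iKO libraries above; on HFD 3 of 5 iKO libraries lay above all WT libraries. The means were 17.9 ± 0.384 and 22.5 ± 3.16 on chow and 15.9 ± 1.27 and 19.7 ± 2.81 on HFD. Averaged over the diets it rose by 0.3 (SE 0.061, limma, adjusted p = 0.00899).

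Parp14 (chr16:35832874-35871544) read 3.91, 3.6, 3.8, 3.2 and 3.64 FPKM in WT and 4.17, 4.68, 3.69, 4.48 and 3.72 in iKO on chow. The levels on HFD were 3.04, 3.18, 3.32, 3.17 and 3.02 in WT and 3.1, 4.82, 3.88, 4.99 and 3.6 in iKO. On chow 3 of 5 iKO libraries and on HFD 4 of 5 lay above all WT libraries. It rose by 0.22 averaged over the diets (SE 0.061), and its adjusted p of 0.0455 (limma) lay close to the threshold. With each library left out in turn it ranged from 0.0111 to 0.0909 and stayed below 0.05 without RT1, RT6, RT9, RT11 or RT20 only; it was 0.105 when the libraries were rescaled by a median of ratios. Ifi35, Ifi44, Xaf1 and Rtp4 lay above 0 on both diets with averaged differences from 0.15 to 0.27, and none was called (smallest adjusted p = 0.0934, for Ifi35, of whose exons 16.8% overlap a gene on the other strand).

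The guanylate-binding proteins, which coat the vacuoles of intracellular microbes, lay above 0 in 4 of 4 on both diets, with medians of 0.225 on chow and 0.163 on HFD, and none was called. Gbp6 read 15.09, 10.39, 10.29, 10.78 and 10.72 FPKM in WT and 13.91, 15.89, 11.34, 20.92 and 13.39 in the chow iKO mice. Under HFD it read 9.49, 13.1, 12.77, 17.72 and 11.25 in WT and 13.15, 17.01, 13.33, 14.47 and 10.52 in iKO. Apart from RT1, the chow WT libraries lay below all chow iKO libraries, and on HFD the groups overlapped. Its averaged difference was 0.23 (SE 0.113, limma, adjusted p = 0.218).

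Gbp7 had the smallest p of its family. It read 3.44, 3.48, 3.67, 2.79 and 2.96 FPKM in WT and 3.18, 3.61, 2.96, 5.05 and 3.93 in iKO on chow. The HFD values were 3.16, 2.97, 3.33, 3.48 and 2.92 in WT and 2.78, 4.32, 3.71, 4.63 and 3.95 in iKO. On HFD 4 of 5 iKO libraries lay above all WT libraries, and RT11 lay below them. Its averaged difference was 0.18 (SE 0.075, limma, adjusted p = 0.147).

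With all libraries, the immunity-related GTPases had the largest median of the 9 role groups on chow, 0.431, and it was 0.223 on HFD. None of the 4 was called. All 4 chow differences were smaller without RT7, at 0.26 for Irgm1, 0.24 for Igtp, 0.21 for Irgm2 and -0.13 for Iigp1. Igtp, Irgm1 and Irgm2 are regulators of the family in mouse, and Iigp1 is an effector that is loaded onto vacuoles. Irgm1 (chr11:48861968-48871683) read 9.71, 10.77, 8.4, 8.65 and 9.13 FPKM in WT and 11.16, 12.02, 10.57, 20.75 and 11.49 in iKO on chow. In HFD-fed mice it read 7.7, 6.93, 8.53, 8.75 and 10.58 in WT and 7.78, 11.79, 8.8, 11.14 and 9.22 in iKO. The chow difference rested partly on RT7: it was 0.42 (SE 0.145, limma, adjusted p = 0.208) with all libraries and 0.26 without RT7. Averaged over the diets it was 0.3 (SE 0.103, adjusted p = 0.0891).

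Igtp (chr11:58199556-58207591) read 5.94, 7.08, 4.62, 4.51 and 6.77 FPKM in WT and 5.86, 6.7, 8.1, 27.62 and 7.19 in iKO on chow. HFD-fed mice had 6.14, 5.28, 6.39, 5.85 and 7.23 in WT and 5.87, 13.15, 6.74, 6.91 and 7.26 in iKO. RT7 stood at 3.98 times the median of the other 4 of its group and RT13 at 1.93 times. The remaining libraries ran from 4.51 to 7.23 in WT and from 5.86 to 8.1 in iKO, ranges that overlapped. The chow difference of 0.61 (SE 0.302, limma, adjusted p = 0.386) was 0.24 without RT7.

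Irgm2, the neighbour whose promoter stretch resembles that of Igtp, read 5.93, 7.18, 4.36, 4.27 and 5.93 FPKM in WT and 5.78, 6.69, 6.09, 15.55 and 7.36 in iKO on chow. Under HFD it read 5.0, 4.95, 5.76, 5.6 and 6.16 in WT and 5.27, 8.97, 6.19, 7.09 and 6.99 in iKO. Its chow difference of 0.44 (SE 0.194, limma, adjusted p = 0.329) was 0.21 without RT7. Of the 100-base stretches of Igtp 5.2% and of Irgm2 3.0% occur in another gene, so most of each can be assigned.

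Iigp1 varied within WT as well as within iKO. It read 15.09, 20.46, 12.08, 9.3 and 17.81 FPKM in WT and 8.0, 10.69, 17.12, 29.92 and 19.85 in iKO on chow. The levels on HFD were 8.69, 8.91, 12.7, 10.88 and 12.27 in WT and 9.46, 15.23, 9.16, 14.66 and 11.36 in iKO. The genotypes overlapped on both diets, and the chow difference of 0.1 (SE 0.279, limma, adjusted p = 0.908) was -0.13 without RT7.

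**Figure D4:**
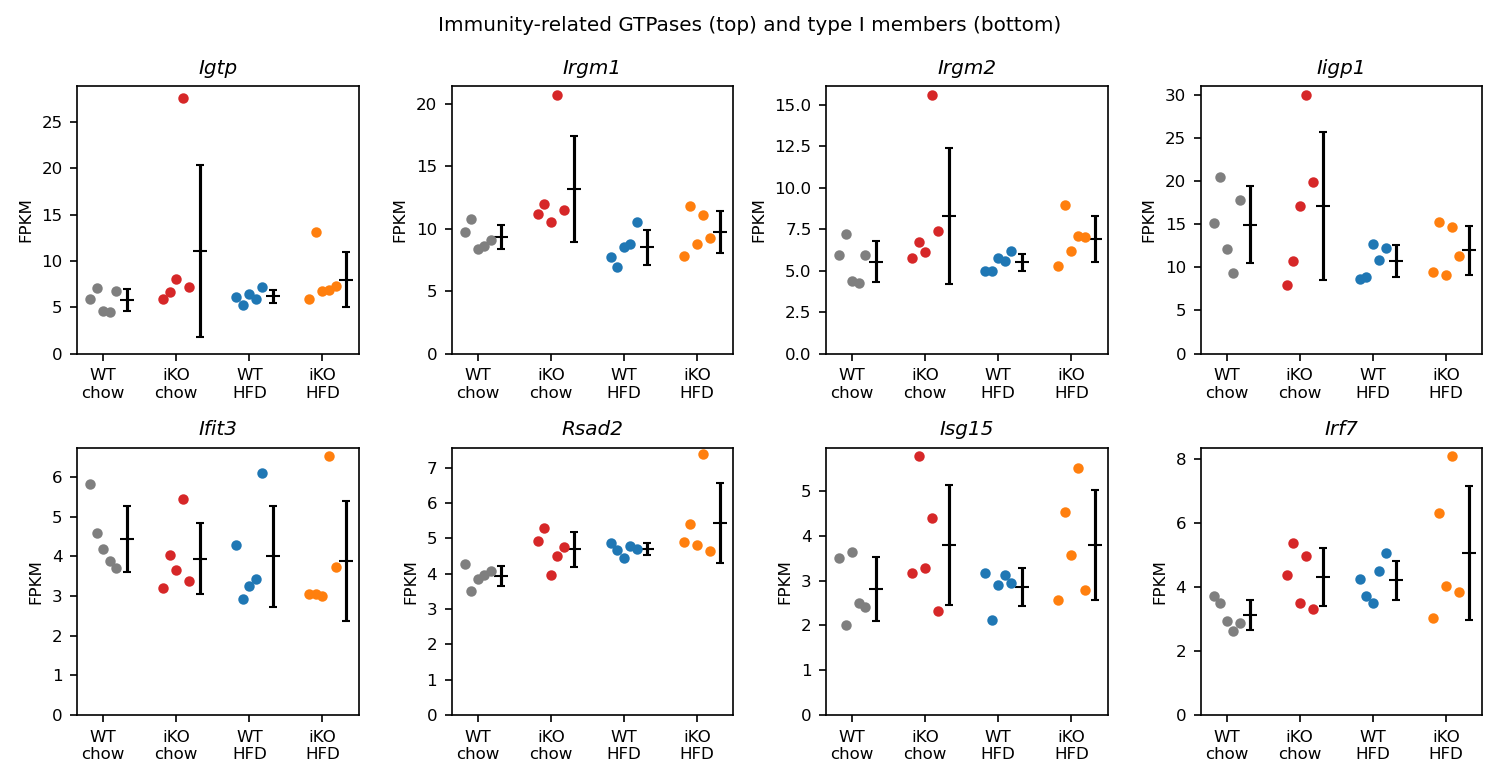
FPKM in each library, by group, of the immunity-related GTPases Igtp, Irgm1, Irgm2 and Iigp1 (top) and of the type I genes Ifit3, Rsad2, Isg15 and Irf7 (bottom); a point is a library and the bar is the mean ± SD of 5 mice. The iKO chow library RT7 stands apart in the top row, with 27.62 FPKM of Igtp, and the iKO HFD library RT17 is highest for 3 of the 4 genes in the bottom row.

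Few of these genes were called between diets. Averaged over the genotypes, Oas2 and Rsad2 were higher on HFD and Ifi27 was lower, 3 of 34, against 25.8% of all tested genes called, 2.55% higher and 23.3% lower. Oas2 rose by 0.22 (SE 0.058, limma, adjusted p = 0.00756) and Rsad2 by 0.19 (SE 0.061, adjusted p = 0.0294), while Ifi27 fell by 0.17 (SE 0.061, adjusted p = 0.0428). The call of Oas2 was kept with any single library left out. That of Rsad2 was lost without RT3 or without RT6, where the highest adjusted p was 0.056. That of Ifi27 was kept without RT6, RT9, RT12, RT13, RT15, RT17 or RT19 and lost without any other single library, and it was -0.08 (adjusted p = 0.41) after rescaling by a median of ratios.

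In WT none of the 34 was called between diets (8.04% of all genes), and 4 had an unadjusted p below 0.05 (25.6%). The 5 WT HFD libraries of Rsad2, at 4.45 to 4.87 FPKM, lay above the 5 WT chow libraries at 3.52 to 4.28, which was so for 0.783% of all genes. Those of Stat2 and Ifit2 lay below, at 1.64 to 1.72 against 1.93 to 2.33 and at 3.14 to 4.05 against 4.2 to 4.54 FPKM, as did 9.99% of all genes. None of these 3 was called in WT (limma, adjusted p = 0.134, 0.19 and 0.26). In iKO none was called (1.65% of all genes were called higher and 8.36% lower), 2 had an unadjusted p below 0.05 (25.7%), and for none did the diets stand apart, against 1.39% of all genes above and 6.41% below; Oas2 came nearest at 0.25 (SE 0.082, limma, adjusted p = 0.056). Averaged over the genotypes, 15 of 34 lay above 0, against 20.6% of all genes, with a median of -0.012 against -0.079. After rescaling by a median of ratios or by the upper quartile the 34 genes' median was 0.053 and 0.042, and the calls of all genes, 326 higher and 2973 lower as deposited, split into 689 and 632 or 579 and 809. A direction for the list between diets therefore depends on the scaling, whereas Oas2 and Rsad2 were called higher under both rescalings.

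The classes were compared side by side, without a test of the difference between them. The scale of FPKM + 1 understates the changes of low genes, and the lowest of the tested genes were all of type I. The class medians therefore cannot be compared on equal terms. On chow the 25 type I genes had a median genotype difference of 0.151, with 21 above 0, and the 9 type II genes one of 0.236, with 9 above 0. On HFD the medians were 0.202, with 23 above 0, and 0.214, with 9 above 0. Averaged over the diets they were 0.163 and 0.226, with 3 called of 25 and 1 of 9; after rescaling by a median of ratios they were 0.122 and 0.161. Between diets the type I median was -0.036 in WT and 0.03 in iKO, and the type II median was -0.016 in WT and -0.118 in iKO; of these, the type II median in iKO was below 0, and the type I median in iKO above 0, under both rescalings too, and the WT medians turned positive. With single libraries left out, however, the iKO medians ran from -0.093 (without RT17) to 0.104 for type I and from -0.207 to 0.036 (without RT7) for type II, so both signs turned.

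A score per library, the mean of a class's log2(FPKM + 1) after centring each gene, showed where the classes parted. The type I score averaged -0.077 ± 0.089 (SD, n = 5) in WT and 0.076 ± 0.175 in iKO on chow, and -0.098 ± 0.055 and 0.099 ± 0.257 on HFD. The type II score averaged -0.11 ± 0.161 and 0.195 ± 0.336 on chow, and -0.143 ± 0.123 and 0.058 ± 0.246 on HFD. On both diets, and in both classes, the iKO libraries spread more widely than the WT libraries, and the group ranges overlapped. The wider spread was not particular to these genes. It was also seen on both diets in scores of macrophage, fibroblast, general leukocyte and endothelial markers, which are described below. It was absent on chow for neutrophil, atrial and erythroid markers, and on HFD for cardiomyocyte, smooth muscle and atrial markers.

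**Figure D5:**
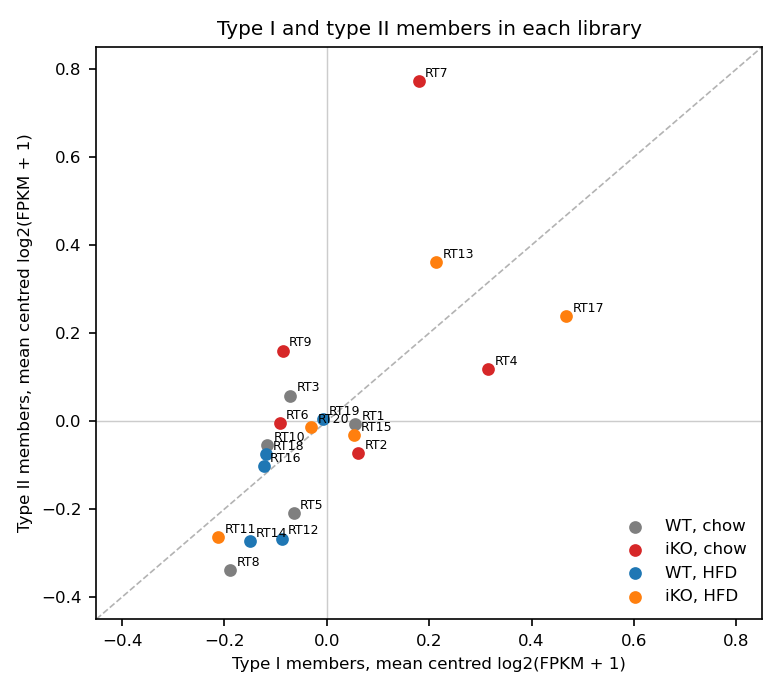
Mean centred log2 level of the 25 type I genes (x axis) and of the 9 type II genes (y axis) in each of the 20 libraries, with a dashed line of equality; colours mark the groups. RT7 lies far above the line, at 0.18 and 0.772, and RT17 farthest below it, at 0.468 and 0.239.

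The iKO chow library RT7 had a type II score of 0.772 and a type I score of 0.18. Relative to the median of the other 4 libraries of its group, its immunity-related GTPases stood at a median of 2.29 times (1.83 to 3.98), its type II genes at 1.53 times and its type I genes at 1.15 times. It held the highest value of the 20 libraries for 6 of the 9 type II genes and for 1 of the 25 type I genes, against 16.0% of all tested genes. RT7 was also the shallowest library, at 12.6 M assigned reads, and the part of depth in its values was not tested. Interferon gamma itself (Ifng) was listed at 0.19 FPKM in RT7, which corresponds to about 3 reads, and at 0 in the other 19 libraries.

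Several other genes known to respond to interferon gamma, picked after their values were seen, were high in RT7 too. The class I antigen H2-K1 read 133.68 FPKM there, against at most 83.79 elsewhere, and the class II genes Cd74 and H2-Aa read 109.1 and 77.1. The score of the 6 tested class II genes was 1.114 in RT7, and the next highest was 0.219 in RT13. Irf1 was not high in RT7, at 9.0 FPKM or 0.924 times the median of the other 4 libraries of its group. The score of 30 other tested interferon targets was 0.201 in RT7, below RT4 (0.261), RT13 (0.209) and RT17 (0.315). The summed FPKM of 9 T and NK cell markers, none of which passed the filter, was 4.35 in RT7, in a group whose lowest sum was 1.21 and median 1.84, and ranged from 1.0 to 1.76 in WT on chow, from 0.63 to 1.09 in WT on HFD and from 0.9 to 2.35 in iKO on HFD, RT13 being the highest there. Their part in the result was not tested.

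The iKO HFD library RT17 was high for the type I class instead. It held the highest value of all 20 libraries for 17 of 25 type I genes and 3 of 9 type II genes, 20 of 34 in all, against 5.76% of all tested genes. Its IFIT genes stood at a median of 1.99 times the median of the other 4 libraries of its group (1.44 to 2.21), its type I genes at 1.49 times and its type II genes at 1.21 times. In the iKO chow library RT4, type I genes stood at 1.36 times and type II genes at 1.06 times. RT4 held the highest value for 5 of the 34, all of type I, a smaller share than its 27.4% of all tested genes, and its median-of-ratios scaling factor, 1.134, was the largest of the 20. RT4 also carried the atrial transcripts described above, whose part in its values was not tested. At the low end, the iKO HFD library RT11 held the lowest value of 20 for 12 of the 34 genes (6.66% of all tested genes) and the WT chow library RT8 for 7 (3.2%).

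Without RT7 and RT17 together, a comparison chosen after their values were seen, the median genotype difference of the 34 genes was 0.145 on chow, 0.13 on HFD and 0.131 averaged over the diets. Irf1, Oasl2 and Ifi27 were still called over both diets and Parp14 was not, and Oasl2 was called on chow. The type I medians were then 0.109 on chow and 0.112 on HFD, and the type II medians 0.211 and 0.137.

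The interferons, their receptors and other targets were read beside the 34 genes. Of 6 interferon genes listed, Ifnb1, Ifne, Ifnl2 and Ifnl3 had no row in the tables used here, Ifnk was at 0.12 FPKM in RT1 and at 0 elsewhere, and Ifng was as given above, so none was tested. The receptors and kinases, with Stat3, made up 8 tested genes. Averaged over the diets, 8 of 8 lay above 0 in iKO (76.5% of all genes) and none was called (5.17%). Averaged over the genotypes, 8 of 8 lay below 0 on HFD, with Jak1, Ifngr2 and Ifnar1 called lower. In that comparison 23.3% of all genes were called lower and 20.6% lay above 0. Jak1 fell by 0.27 (SE 0.039, limma, adjusted p = 4.4e-05) and was called under both rescalings. Ifngr2 and Ifnar1 were not, and Ifnar1 was called in 7 of 20 fits that left out a library (adjusted p from 0.0234 to 0.0867). Ifnar1 differed by 0.15 between genotypes (SE 0.048, adjusted p = 0.076) and Ifngr1 by 0.08 (adjusted p = 0.382).

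Among 16 tested genes that sense nucleic acids upstream of interferon, Tlr3, the endosomal receptor of double-stranded RNA, was called in iKO on chow, at 0.28 (SE 0.06, limma, adjusted p = 0.0204), and averaged over the diets, at 0.21 (SE 0.043, adjusted p = 0.0081). Of all genes, 1.06% were called in either direction on chow, and 4.01% were called higher over both diets. The chow call of Tlr3 was kept in 16 of 20 fits that left out a library (limma, adjusted p from 0.0119 to 0.0691). Its call over both diets was kept in 20 of 20. Of 5 tested inhibitors of the pathway, Socs3 rose by 0.27 over both diets (SE 0.076, adjusted p = 0.0425). Of 12 genes of class I antigen presentation, Tapbp rose by 0.21 (SE 0.061, adjusted p = 0.0451). Both lay close to the threshold: with each library left out in turn, the adjusted p ranged from 0.0176 to 0.0789 for Socs3, which was called in 7 of 20 fits, and from 0.00661 to 0.0909 for Tapbp, called in 5 of 20, and neither was called after rescaling. Of 30 other tested interferon targets, 30 lay above 0 over both diets (76.5% of all genes), with a median of 0.168 (all genes 0.057). Of these 30, 17 had an unadjusted p below 0.05 (25.1% of all genes) and none was called. Between diets, averaged over the genotypes, Trim25 of the sensing genes was called higher. Called lower were Tlr3 and Ticam1 of the sensing genes, Ptpn2 of the inhibitors, Psme1, Psme2, Psmb10 and Tap2 of class I presentation, H2-DMb1 of class II, and Eif2ak2 and Nmi of the other targets. Of all genes, 23.3% were called lower and 2.55% higher in this comparison. All 12 class I and 6 tested class II genes lay below 0 on HFD, as did most genes in that comparison. Tlr3 was called lower in iKO as well, at -0.26 (SE 0.06, limma, adjusted p = 0.00842), as were 8.36% of all genes. Neither Tlr3 diet call held after median-of-ratios scaling.

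Markers of other cell types were read in the same libraries. In bulk tissue, fewer cells of a type and less RNA per cell cannot be told apart. The summed FPKM of 10 macrophage markers ran from 189 to 217 in WT and from 190 to 296 in iKO on chow, and from 146 to 190 in WT and from 145 to 234 in iKO on HFD. That of 9 fibroblast markers ran from 346 to 423 and from 389 to 769 on chow, and from 345 to 379 and from 331 to 675 on HFD. RT4 had the highest sum of both lists on chow and RT17 on HFD, the libraries in which the type I genes were high, and RT11 had the lowest macrophage sum of the 20 libraries. RT4 and RT17 also had the highest sums of the endothelial, B cell and plasmacytoid dendritic markers, the last of which include Bst2. RT4 held the highest value of 27.4% of all tested genes. Other lists differed, with general leukocyte markers highest in RT7 and RT17, neutrophil markers in RT1 and RT20, and smooth muscle markers in RT10 and RT13. Averaged over the diets 10 of 10 macrophage and 9 of 9 fibroblast markers lay above 0 in iKO, against 76.5% of all genes. Their medians were 0.192 and 0.336. Of these markers 0 and 1 (Tcf21) were called, against 5.17% of all genes in either direction and 4.01% higher. The group sums overlapped on both diets. The 8 endothelial markers summed to 207 to 214 in WT and 190 to 227 in iKO on chow, and to 188 to 208 and 193 to 225 on HFD. The part of these cells in the levels of the interferon-stimulated genes was not tested.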

How the data were processed

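Poly(A) RNA of 20 left ventricles was read as 100 nt single-end sequence from TruSeq libraries, from RNA with an integrity number above 8, per the labels' protocols. For each library the authors deposited a table of FPKM per gene, to 2 decimals. Bowtie2, RSEM and the build mm9 are named, without versions, by the submitters' processing notes. Positions are given on GRCm38 although mm9 is stated, since GENCODE M21, made for GRCm38, holds all 38 gene IDs (31 in the same version). RSEM assigns reads by estimated shares, so near copies exchange reads, and the tables hold no counts or strand.

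Samples were grouped by the genotype and diet of the labels. Values were taken as log2(FPKM + 1), and a gene had to reach 0.5 FPKM in 5 or more libraries. Limma 3.58.1 in R 4.3.3, with an intensity trend and robust moderation, was fitted with 4 group means to all 20 libraries, and each of 7 contrasts was adjusted by Benjamini-Hochberg over 12775 genes, with calls at 0.05. The 2 averaged contrasts reuse the libraries of the contrasts they average, and the genotype and diet contrasts share groups. Other steps used Python 3.11.15 (pandas 2.3.3, numpy 2.4.6, matplotlib 3.10.9, scipy 1.17.1). Errors are SDs over 5 mice or limma's SE, and mice are the replicates. On simulated data, 50 genes for each size of change, the fit called 92% of the 1.5-fold and 52% of the 1.25-fold changes on chow, and 94% and 76% of them on HFD. The simulated noise was independent between genes, with no shift shared within a library, and only genes above a minimum level were changed. Depth was estimated from 124 to 184 short genes per library, of whose values 61.0% to 74.4% were whole to within 0.05 reads; it lay between 12.6 and 31.9 M, and deeper libraries give lower error. No libraries were identical (correlations 0.99 to 0.997).

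The 38 genes, the classes, the other lists and the tests were chosen with earlier results of these data known. Every gene of the list is accounted for. Full values were given for genes called in any contrast, for the highest and the lowest-p gene of each of 9 role groups, and for the highest of each class; of the other lists, called genes and Ifnar1 and Ifngr1 could be named, and 1 gene is not reported here. Ifit3, Irf7, Igtp and Irgm2, and the genes named for RT7, were added after their values were seen. Alternatives were another pseudocount (0.1), no minimum, rescaling, library weights, no trend, only the compared groups, and leaving out libraries.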

Additional observations from a re-analysis of the deposited data

Results flagged for a closer look

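Within each group of 5 mice, each tested gene was checked for a single library apart from the other 4, by the gap to its nearest neighbour over the whole range (Dixon's test, critical value 0.71). Of 136 pairs of gene and group, 19 had such a library, 17 high and 2 low, or 14%. Over all tested genes the share was 5.82%, and chance gives about 1 in 20 for independent values; genes of a library are not independent. They fell on RT1 (4), RT7, RT17 and RT19 (3 each), RT4 (2) and RT3, RT8, RT13 and RT14 (1 each).

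In the iKO chow library RT7, Igtp was at 27.62 FPKM against 5.86 to 8.1 in the other 4 libraries of its group, Irgm1 at 20.75 against 10.57 to 12.02, and Irgm2 at 15.55 against 5.78 to 7.36. All 3 are type II genes. In the iKO HFD library RT13, Igtp was at 13.15 against 5.87 to 7.26.

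In the iKO HFD library RT17 the genes apart were of type I. Ifit3 was at 6.53 FPKM against 3.01 to 3.73, Oasl2 at 3.63 against 2.15 to 2.42, and Rsad2 at 7.38 against 4.64 to 5.41. In the iKO chow library RT4, Ifit2 was at 5.47 against 3.65 to 4.08 and Usp18 at 1.63 against 0.95 to 1.1.

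Libraries of WT mice stood apart as well. In RT1, the chow library with the most atrial transcript, Ddx58 was at 3.54 FPKM against 2.43 to 2.69, Oas2 at 0.85 against 0.64 to 0.68, Ifitm3 at 66.93 against 52.58 to 55.8, and Gbp6 at 15.09 against 10.29 to 10.78. Stat2 was at 2.33 in RT3 against 1.93 to 2.04, and Gbp3 was low at 2.6 in RT8 against 3.59 to 3.89. On HFD, RT19 had Ifit1 at 1.76 against 1.17 to 1.34, Oasl2 at 2.14 against 1.63 to 1.77, and Bst2 at 16.35 against 12.35 to 12.9. Isg15 was low at 2.12 in RT14 against 2.89 to 3.17. What set these libraries apart was not tested.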

How the results depend on the processing

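No paired analysis was possible because the library numbers are not shared between groups. With each library left out in turn, the interferon-stimulated genes called numbered 0 to 3 for genotype on chow (3 without RT6), 0 to 1 for genotype on HFD, 0 to 1 for diet in WT (Rsad2 without RT17), 0 to 1 for diet in iKO (Oas2 without RT4, RT19 or RT20), 0 to 0 for the interaction, 3 to 10 for genotype over both diets and 1 to 5 for diet over both genotypes. The 10 were called without RT11 (Irf1, Oasl2, Ifi27, Parp14, Bst2, Ddx58, Gbp2, Gbp7, Ifih1 and Ifitm3), the 1 without RT3 (Oas2) and the 5 without RT19 (Ifi27, Ifi35, Irgm1, Oas2 and Rsad2). The number of all tested genes called moved in these fits too, so the movement was not particular to the interferon-stimulated genes. It ran from 336 to 1042 for genotype over both diets and from 2752 to 3513 for diet over both genotypes. For genotype it ran from 92 to 151 on chow and from 6 to 39 on HFD. For diet it ran from 623 to 1182 in WT and from 872 to 1475 in iKO. Irf1, Oasl2 and Ifi27 kept their genotype call over both diets in 20 of 20 such fits.

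Other settings moved these counts too. On chow 1 gene (Oasl2) was called without RT7 and RT17, and on HFD 1 (Irf1) with library weights. For diet in WT 1 was called after median-of-ratios scaling, and 2 with library weights or with only the compared groups. For diet in iKO 1 (Oas2) was called after either scaling, with library weights, with no trend, and without RT1 and RT4. With no minimum, 2 were called for genotype over both diets (Ifi27 and Irf1) and 1 for diet over both genotypes, where 1 was also called without RT7 and RT17. Calls of all genes on chow, 44 higher and 92 lower, were 19 and 124 after median-of-ratios scaling; for diet they were 98 and 929 in WT and 211 and 1068 in iKO, and then 180 and 152 and 324 and 241.

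Signs turned for genes near 0. Without RT7 and RT17, Iigp1 was -0.128 on chow and -0.033 over both diets, and Ifit1 -0.011 on HFD and -0.047 over both. With library weights Ifit3 was 0.011 and Ifit3b 0.026 on HFD. With single libraries left out, Ifit1 lay between -0.084 and 0.011 on chow, -0.011 and 0.205 on HFD and -0.027 and 0.08 over both, Ifit2 on chow between -0.116 and 0.003, Ifit3 on HFD between -0.215 and 0.088, and Ifit3b on HFD between -0.165 and 0.068. On chow Dhx58 lay between -0.004 and 0.076, Oas1a between -0.021 and 0.173, Oasl1 between -0.037 and 0.097, Usp18 between -0.015 and 0.112 and Iigp1 between -0.128 and 0.317. The cause was not tested. With single libraries left out, the genotype median of the 34 genes lay between 0.139 and 0.231 over both diets, while their diet median lay between -0.056 and 0.02 and that of the interaction between -0.082 and 0.077. Genes near 1 FPKM rest on few reads in RT7. In the simulation 52% of 1.25-fold and 92% of 1.5-fold changes on chow were recovered, so changes of either size can be missed. Its genes were drawn from all genes above a minimum level, with independent noise, so these shares do not describe the 34 genes. Igtp on chow, at 1.53-fold with an SE of 0.302, was not called, and its difference of 0.61 was 0.24 without RT7.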
